A study of Homo sapiens with 4 samples.

Results

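The 45 genes described here make ribosomes: they encode subunits and factors of RNA polymerase I (Pol I), proteins of the small nucleolar RNPs that modify ribosomal RNA, and assembly factors of the small and the large ribosomal subunit. Members were taken by gene symbol from the deposited count tables, 45 of the 24462 symbols listed, and no member's symbol was repeated. Of these, 44 reached 10 reads in every comparison. The remaining one, PPAN, was listed at 0 reads in all 4 libraries.

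Ribosome production starts in the nucleolus, where Pol I transcribes the long precursor of the ribosomal RNAs. Box C/D RNPs methylate this precursor and box H/ACA RNPs convert selected uridines to pseudouridine, while a large complex called the small subunit processome and a series of pre-60S particles fold and cut it. The pathway takes up much of the biosynthetic effort of a growing cell, and growth signals that drive the cell cycle, among them MYC, also drive its genes.

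The cells were HepG2, an established line from a human hepatocellular carcinoma, kept in RPMI medium with fetal bovine serum. One library was made of cells treated with DMSO, the solvent, and 1 of cells treated with PD0332991 (PD-0332991 in the labels), a selective inhibitor of the cell cycle kinases CDK4 and CDK6. A further library came from cells given a scrambled siRNA, the control transfection, and 1 from cells given siRNAs against both kinases (CDK4/6 KD). The dose and time behind the sequenced cells were not given in the sources used here, and with 1 library per condition no difference between conditions could be tested. All statements compare libraries, not conditions: intervals are exact 95% counting intervals, which cover counting error only, and a gene is called lower or higher when the ratio passes 1.5-fold.

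QuantSeq libraries hold the 3′ ends of polyadenylated transcripts, so levels in counts per unit of library size (CPM, scaled by TMM) could be set side by side between genes without regard to length. The 4 libraries held 8983848 to 11176880 reads. CDK4 stood at 354 CPM with scrambled siRNA and 71.9 in CDK4/6 KD cells, and CDK6 at 536 and 129, which fits the labels. PD0332991, which acts on the proteins, left CDK4 at 257 CPM beside 301 in DMSO and CDK6 at 479 beside 515. All 9 hepatocyte markers were read in each library, with a summed level of 15401 to 19682 CPM, while summed endothelial markers stayed under 1 CPM and leukocyte markers between 8.04 and 15.5 CPM.

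Promoter sequence was a feature the choice of genes did not use. RefSeq (GRCh38.p14) gave a window from 250 bases before to 50 bases after the start site for 38 of the 45 genes. The E-box CACGTG is a palindrome bound by basic helix-loop-helix proteins such as MYC. It occurred in a window of 17 of these 38 genes (44.7%), beside 12.3% of the 10092 genes with a window and at least 10 reads and 8.77% of all 27305 genes with a window. In 12 of the 17 every match lay after the start site, in 3 every match lay before it, and in 2 matches lay on both sides. For EBNA1BP2, among the latter, the matches lay in windows of different start sites. The stretches below are examples from genes whose levels are described further on. Other members with an E-box as close to the start site, among them GNL2, RRP9 and PNO1, are not shown. Each stretch is 30 bases, 5′ to 3′ on the strand of the gene, with the E-box in capitals.
WDR43: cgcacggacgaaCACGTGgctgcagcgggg
GNL3: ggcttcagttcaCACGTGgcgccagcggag
FBL: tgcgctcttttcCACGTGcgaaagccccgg
MRTO4: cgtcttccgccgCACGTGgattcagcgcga
PES1: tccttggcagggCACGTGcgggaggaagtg
NOP14: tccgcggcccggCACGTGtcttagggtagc
UTP20: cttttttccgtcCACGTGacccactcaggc
NOP2: gctaggtccggattgCACGTGgagggccgc

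These stretches lie at chr2:28894658-28894687 (WDR43, plus strand), chr3:52686026-52686055 (GNL3, plus strand), chr19:39846356-39846385 (FBL, minus strand), chr1:19251807-19251836 (MRTO4, plus strand), chr22:30591880-30591909 (PES1, minus strand), chr4:2963374-2963403 (NOP14, minus strand), chr12:101280083-101280112 (UTP20, plus strand) and chr12:6568242-6568271 (NOP2, minus strand). In each case at least part of the stretch overlaps an exon of the named gene in the GENCODE annotation. For NOP14 and UTP20 only part does, because that annotation starts these genes at chr4:2963385 and chr12:101280109. In both, the E-box itself lies before the gene as annotated there. The distances that follow are from RefSeq start sites, which can differ from those of GENCODE. The first base of the E-box was 4 bases after the start site in WDR43, 7 in GNL3 and in FBL, 15 in MRTO4, 14 in PES1, 16 in NOP14 and 36 in NOP2, and 10 bases before it in UTP20. Other motifs were searched on both strands in the same windows and again counted by gene. The ETS-type CCGGAAG occurred in 16 of 38 genes (42.1%, beside 21.7% of genes with 10 reads) and the NRF1-type GCATGCGC in 4 (10.5%, beside 6.31%). The E2F-type TTTCCCGC, of the factors that the CDK4/6 substrate RB restrains, occurred in 1 (2.63%, beside 3.17%), TTTGGCGC in 0 (beside 1.3%) TATAAA in 2 (5.26%, beside 8.52%) and the pyrimidine stretch CTTTCC in 9 (23.7%, beside 32.5%). These are matches of letters only and say nothing of binding, and CTTTCC can overlap TTTCCCGC.

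Levels spanned about the same range in all 4 libraries. Nucleolin (NCL), an abundant nucleolar RNA-binding protein, was the highest member throughout, at 2602 CPM in DMSO, 1704 in PD0332991, 2725 with scrambled siRNA and 1559.6 in CDK4/6 KD. NCL, NPM1 and DDX21 together made up 47.7% to 50.02% of all reads of the list in each library. Over all members the summed level was 10722 CPM in DMSO, 7749 in PD0332991, 11672 with scrambled siRNA and 7065 in CDK4/6 KD. In the same order the members, a part of the pathway, took 1.07%, 0.785%, 1.12% and 0.727% of all counted reads. The summed ratio was 0.605 for CDK4/6 KD over scrambled siRNA and 0.723 for PD0332991 over DMSO. Without the 3 most abundant genes these ratios were 0.619 and 0.703.

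**Figure D1:**
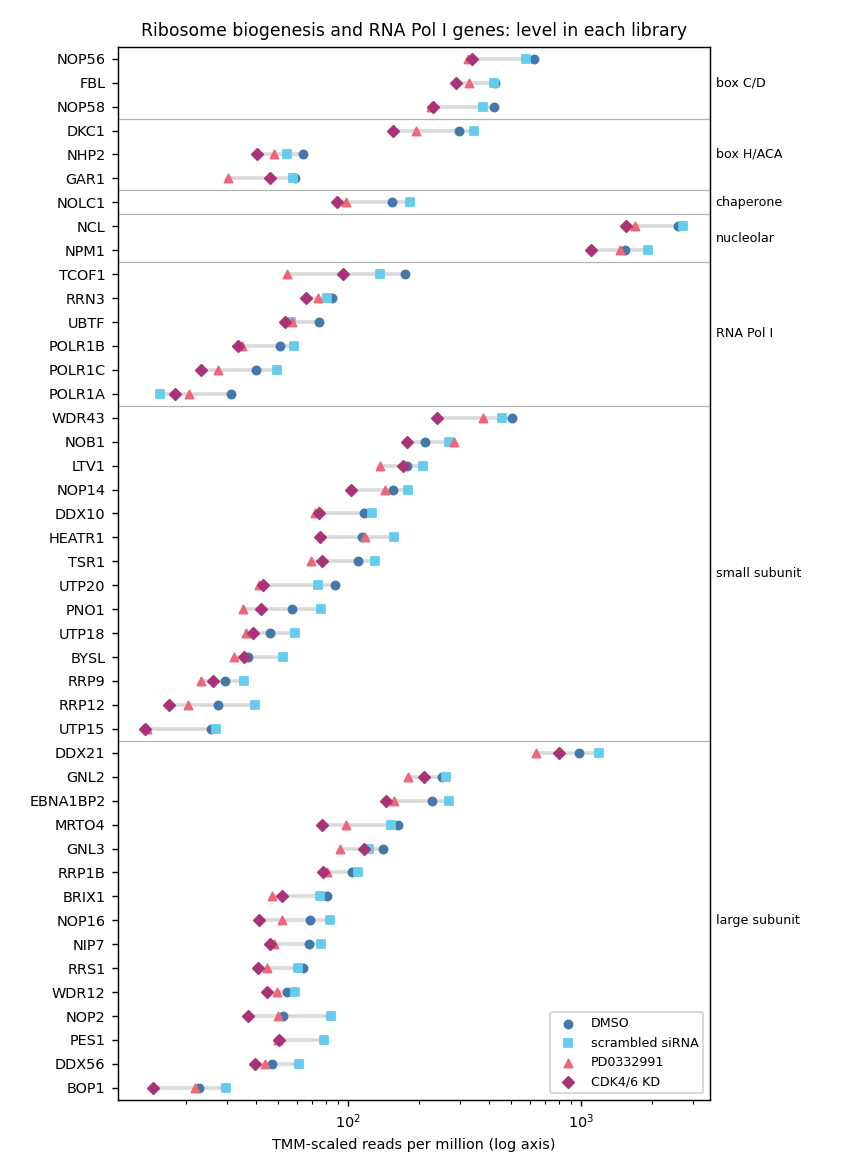
Level of each of the 44 counted genes in the 4 libraries, in TMM-scaled CPM on a log axis, grouped by role and ordered within a group by level; a grey line joins a gene's lowest and highest library. The CDK4/6 KD and PD0332991 symbols lie to the left of both controls for 40 of the 44 genes (beside 21% of all genes).

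In CDK4/6 KD cells nearly the whole list was lower than with scrambled siRNA. Of 44 genes, 27 were at least 1.5-fold lower, beside 17.4% of all genes tested and 15.5% of the 7202 genes counted at least as deeply as the members, and 0 were 1.5-fold higher, beside 19.4% and 10.6%. Their log2 fold changes had a median of -0.71, against -0.0036 over all genes and -0.06 over the deeply counted ones. The counting interval lay wholly under 1 for 41 members, which holds for 31.9% of all genes, and wholly above 1 for 0, beside 30%. Intervals narrow with depth, and all genes include thinly counted ones. Shares of intervals over all genes, here and below, are thus not at like depth. At least 2-fold lower were 9 members (beside 7.62% of all genes): RRP12, NOP2, DKC1, POLR1C, HEATR1, NOLC1, BOP1, NOP16 and UTP15. Set against DMSO instead, 3 other members were at least 2-fold lower in the knockdown, MRTO4, UTP20 and WDR43 (beside 8.16% of all genes), and the 9 named had ratios from 0.518 (DKC1) to 0.705 (NOP2).

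With PD0332991 the list was lower than in DMSO as well, by less at the median. At least 1.5-fold lower were 17 of 44 genes, beside 15.1% of all genes and 12.4% of the deeply counted, and 0 were 1.5-fold higher, beside 16.8% and 7.97%. The median log2 fold change was -0.49, against 0.02 for all genes. Intervals lay wholly under 1 for 36 members (beside 28.6% of all genes) and above 1 for NOB1 alone (beside 28.1%). The whole interval passed 1.5-fold lower for 7 members, beside 6.82% of all genes. Only TCOF1 and UTP20 were at least 2-fold lower, beside 7.06% of all genes. A smaller share of growing cells and less of each transcript per cell cannot be told apart in these bulk libraries.

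**Figure D2:**
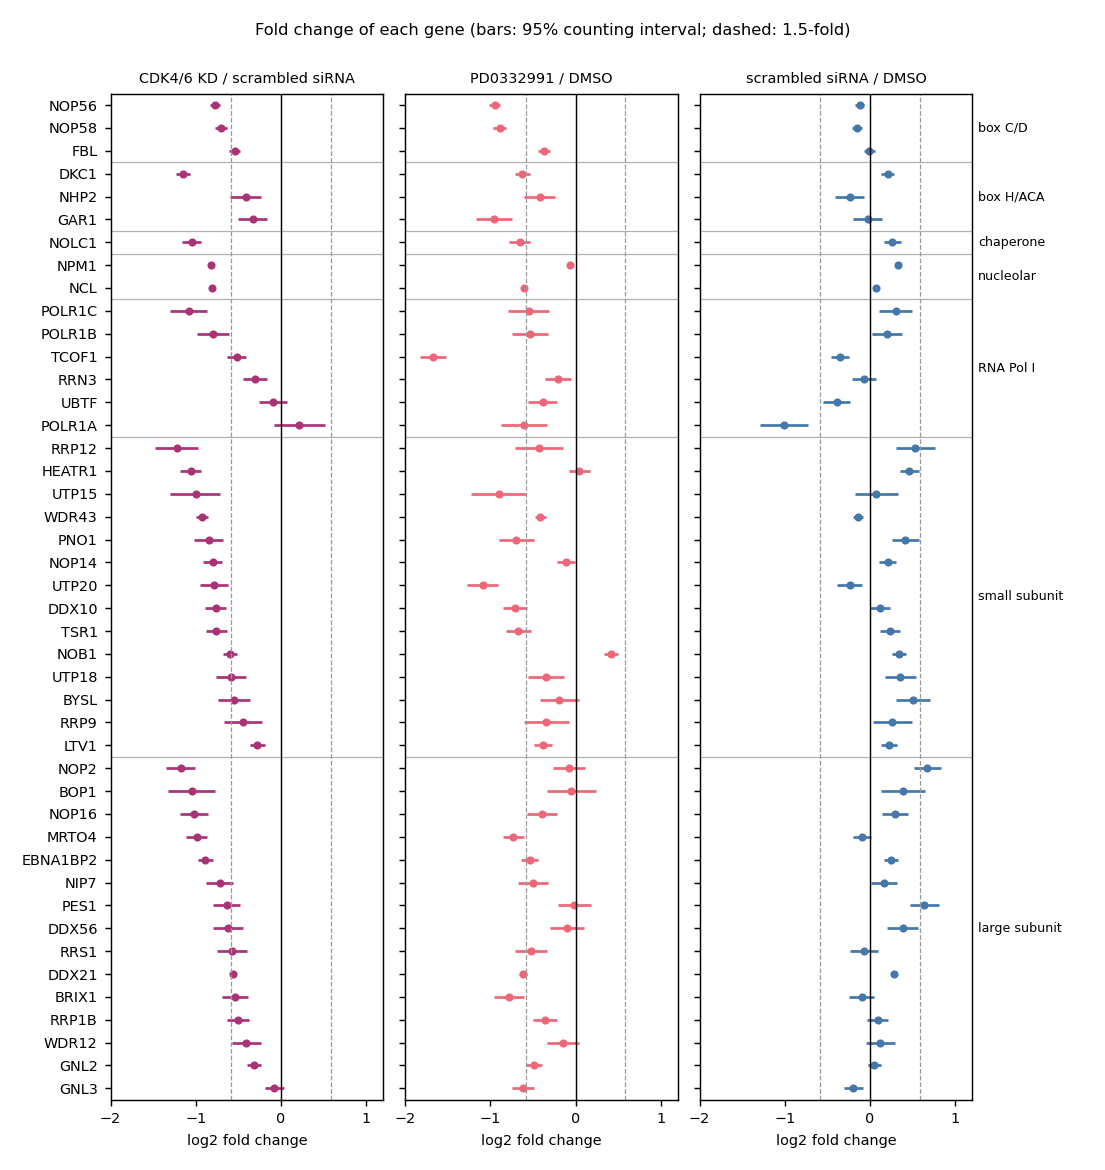
Log2 fold change of each gene in CDK4/6 KD over scrambled siRNA, PD0332991 over DMSO and scrambled siRNA over DMSO, with 95% counting intervals as bars and 1.5-fold as dashed lines. In the first panel 43 points lie left of 0, in the second 42, and in the third, which holds the controls, 15. Of all genes tested, 6843 of 13617, 6507 of 13443 and 6563 of 13303 were under 0 in the same order.

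The 6 genes of Pol I transcription had, on the log2 scale, a median fold change of -0.41 in CDK4/6 KD and -0.54 with PD0332991, and they ranged from -1.08 to 0.21 in the former and from -1.67 to -0.21 in the latter. TCOF1 encodes treacle, which brings Pol I and UBTF together at ribosomal DNA. Its level was 174 CPM in DMSO, 54.7 in PD0332991, 136 with scrambled siRNA and 95.1 in CDK4/6 KD. The inhibitor library held 0.314-fold the DMSO level (0.283 to 0.347), the lowest ratio of any member in either treatment, while CDK4/6 KD held 0.697-fold (0.643 to 0.754) of its control and did not pass 1.5-fold. Both treated libraries were under both controls.

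POLR1B, the second largest subunit, and POLR1C, which Pol I shares with RNA polymerase III, followed the list. POLR1B was at 50.7 CPM in DMSO, 34.9 in PD0332991, 58.3 with scrambled siRNA and 33.5 in CDK4/6 KD, a ratio of 0.574 in the knockdown (0.504 to 0.653) and 0.690 with the inhibitor (0.596 to 0.797). POLR1C was at 40.3, 27.5, 49.6 and 23.4 CPM in the same order, a ratio of 0.472 in the knockdown (0.406 to 0.548). Only the knockdown ratios passed 1.5-fold.

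POLR1A, the largest subunit, went its own way. It was read at 31.4 CPM in DMSO, 20.6 in PD0332991, 15.6 with scrambled siRNA and 18.1 in CDK4/6 KD, so the scrambled siRNA control was the lowest of the 4. Its ratio was 0.658 with PD0332991 (0.544 to 0.793) and 1.16 in CDK4/6 KD (0.941 to 1.43), and scrambled siRNA over DMSO was 0.498 (0.408 to 0.603). Against the other control the PD0332991 library was higher, with a log2 fold change of 0.40. The direction of POLR1A thus depended on which control it was set against, on 167 to 287 reads per library.

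UBTF, the upstream binding factor that opens ribosomal DNA, showed a related pattern: 74.5 CPM in DMSO against 57.0, 56.8 and 53.4 in PD0332991, scrambled siRNA and CDK4/6 KD. DMSO alone was high, and the interval of CDK4/6 KD over scrambled siRNA (0.839 to 1.05) included 1. RRN3, which carries the growth signal to Pol I, differed little: 85.3 CPM in DMSO, 73.9 in PD0332991, 80.8 with scrambled siRNA and 65.6 in CDK4/6 KD.

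Among the box C/D proteins, NOP56 and NOP58 form the paired scaffold of the RNP and FBL (fibrillarin) is its methyltransferase. NOP56 was at 628 CPM in DMSO, 326 in PD0332991, 576 with scrambled siRNA and 338 in CDK4/6 KD, and NOP58 at 421, 227, 378 and 232 CPM. The 2 treated libraries stood close together and apart from the 2 controls for both genes. NOP56 held 0.587-fold (0.563 to 0.611) of its control level in CDK4/6 KD and 0.518-fold (0.496 to 0.542) with PD0332991. FBL moved less, from 426 to 329 CPM with PD0332991 and from 423 to 291 in CDK4/6 KD, and passed 1.5-fold in neither comparison with its ratios of 0.774 and 0.686.

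The box H/ACA proteins were lower too, by amounts that differed between the treatments. DKC1 (dyskerin), the pseudouridine synthase, was at 299.7 CPM in DMSO, 194 in PD0332991, 345 with scrambled siRNA and 155 in CDK4/6 KD, a ratio of 0.450 (0.425 to 0.476) in the knockdown and 0.648 (0.610 to 0.688) with the inhibitor. GAR1, a small protein of the same particle, showed the reverse order: 59.2 CPM in DMSO, 30.5 in PD0332991, 58.0 with scrambled siRNA and 46.2 in CDK4/6 KD, with ratios of 0.516 (0.445 to 0.597) for the inhibitor and 0.796 (0.707 to 0.896) for the knockdown. NHP2, their RNA-binding partner, had ratios of 0.750 and 0.747 in CDK4/6 KD and PD0332991. NOLC1, the chaperone that binds both classes of RNP, was at 153.2 CPM in DMSO, 97.4 in PD0332991, 184 with scrambled siRNA and 89.0 in CDK4/6 KD, so both treated libraries lay well under both controls.

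NPM1 (nucleophosmin), a histone and ribosome chaperone of the nucleolus, behaved unlike NCL. It was at 1537 CPM in DMSO, 1467 in PD0332991, 1928 with scrambled siRNA and 1094 in CDK4/6 KD. The ratio was 0.567 in the knockdown (0.555 to 0.580) and 0.954 with the inhibitor (0.932 to 0.977), whereas NCL had 0.572 (0.562 to 0.583) and 0.655 (0.642 to 0.668). NPM1 has 45 named pseudogenes in GENCODE 29, and its count is uncertain where reads could have been shared with these copies. Of the other members, 10 have between 1 and 3 named pseudogenes each.

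The 14 small subunit factors were lower in CDK4/6 KD without exception, with a log2 median of -0.78, and 12 of 14 were lower with PD0332991, with a median of -0.40. Of all genes, 6843 of 13617 were lower in CDK4/6 KD and 6507 of 13443 with PD0332991. UTP20, a scaffold of the processome, was at 87.8 CPM in DMSO, 41.3 in PD0332991, 74.3 with scrambled siRNA and 43.1 in CDK4/6 KD. UTP15, of the subcomplex that also acts in ribosomal DNA transcription, was at 25.6, 13.7, 26.9 and 13.4 CPM. In both genes the treated libraries lay close together, under both controls. The controls of UTP20 differed, at 0.847-fold (0.766 to 0.935) for scrambled siRNA over DMSO. WDR43, of the same subcomplex, was lower in CDK4/6 KD (239 CPM beside 456) than in PD0332991 (378 beside 505 in DMSO).

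RRP12, an export factor of the small subunit, had the lowest knockdown ratio of the list: 0.429 (0.359 to 0.509), from 39.8 CPM with scrambled siRNA to 17.1 in CDK4/6 KD, beside 27.6 in DMSO and 20.5 in PD0332991. Its controls were apart, at 1.44-fold (1.23 to 1.69) for scrambled siRNA over DMSO, so against DMSO the knockdown ratio was closer to 1. DDX10, an RNA helicase, PNO1, which assists the last cut of the small subunit RNA, and TSR1, a factor of late assembly, were lower by similar amounts in both treatments. Their ratios were 0.588, 0.555 and 0.590 in CDK4/6 KD and 0.613, 0.619 and 0.628 with PD0332991. RRP9, BYSL and LTV1 did not reach 1.5-fold in either comparison, with ratios from 0.682 to 0.876, and UTP18 did so only in the knockdown, at 0.665.

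NOB1 and HEATR1 stood apart in the inhibitor library. NOB1, the endonuclease that makes the last cut of the small subunit RNA, was at 212 CPM in DMSO, 283 in PD0332991, 269 with scrambled siRNA and 178 in CDK4/6 KD. Its ratio was 1.34 with the inhibitor (1.26 to 1.42) and 0.660 in the knockdown (0.623 to 0.699), so the intervals lay on opposite sides of 1. With the controls exchanged these were 1.05 (0.999 to 1.11) and 0.837 (0.786 to 0.891). HEATR1, a processome scaffold, was at 114, 118, 157 and 75.5 CPM, a ratio of 1.03 (0.947 to 1.13) with the inhibitor and 0.480 (0.442 to 0.521) in the knockdown. NOP14, another processome protein, was close to its control with PD0332991 (0.926, 0.858 to 0.999) and at 0.573 (0.532 to 0.617) in CDK4/6 KD.

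Reads at some of these loci may come from a neighbour, because whether strand was used in counting was not given in the sources used here. LGALS8, a galectin gene, ends against HEATR1 on the opposite strand, and its log2 fold changes, -1.12 in CDK4/6 KD, 0.09 with PD0332991 and 0.57 between the controls, ran beside those of HEATR1 at -1.06, 0.05 and 0.46. The antisense gene NOP14-AS1 gave -0.88, -0.06 and 0.26, beside -0.80, -0.11 and 0.21 for NOP14. SRR, at the end of TSR1, gave -0.66 in CDK4/6 KD and -0.83 with PD0332991, and XPO5, at the end of POLR1C, gave -0.62 and -0.41. DNALI1, at the end of GNL2, gave -0.30 and -0.63. Other neighbours ran apart from the member: RMND5B gave -0.38 and 0.05 at the end of NHP2 (-0.41 and -0.42), and PDXDC1 gave 0.003 and -0.03 at the end of RRN3 (-0.30 and -0.21). Without knowing the use of strand, how far reads of either gene of a pair entered the count of the other cannot be told.

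The 15 large subunit factors counted were all lower than their controls in both comparisons, with medians of -0.62 in CDK4/6 KD and -0.49 with PD0332991. Of all genes, 6843 of 13617 were lower in CDK4/6 KD and 6507 of 13443 with PD0332991. MRTO4, which holds the place of a stalk protein during assembly, was at 163 CPM in DMSO, 98.1 in PD0332991, 152.6 with scrambled siRNA and 76.8 in CDK4/6 KD, ratios of 0.503 (0.463 to 0.547) and 0.603 (0.554 to 0.655) for the knockdown and the inhibitor. EBNA1BP2, a nucleolar assembly factor, was at 228, 157, 270.1 and 146 CPM. For both genes the treated libraries were the lower ones, whichever control was used.

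BOP1, PES1 and WDR12 form the PeBoW complex, which processes the large subunit RNA. All 3 were near their control with PD0332991, at ratios of 0.965 (0.791 to 1.18), 0.990 (0.868 to 1.13) and 0.905 (0.794 to 1.03), and each of these intervals included 1. In CDK4/6 KD the ratios were 0.485 (0.399 to 0.587), 0.642 (0.576 to 0.715) and 0.754 (0.669 to 0.849). For PES1 this difference rested on its control: its level was 50.5 CPM in DMSO, 49.97 in PD0332991 and 50.4 in CDK4/6 KD, and 78.4 with scrambled siRNA. For BOP1 CDK4/6 KD was the lowest library, with 22.9 CPM in DMSO, 22.1 in PD0332991, 29.9 with scrambled siRNA and 14.5 in CDK4/6 KD.

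NOP2, a methyltransferase of the large subunit RNA that is known as a proliferation antigen, was lowest in CDK4/6 KD, as BOP1 was. It was at 52.6 CPM in DMSO, 49.97 in PD0332991, 83.8 with scrambled siRNA and 37.1 in CDK4/6 KD, with ratios of 0.443 (0.393 to 0.498) in the knockdown and 0.949 (0.833 to 1.08) with the inhibitor. The controls of NOP2 were apart, at 1.59-fold (1.42 to 1.78) for scrambled siRNA over DMSO. With the controls exchanged its ratios took the reverse order, 0.705 in the knockdown and 0.596 with the inhibitor. Those of BOP1 kept their order, at 0.634 and 0.739. GNL3 (nucleostemin), a GTPase of growing and stem cells, was lowest with the inhibitor: 141 CPM in DMSO, 91.7 in PD0332991, 123 with scrambled siRNA and 116 in CDK4/6 KD. Its ratio was 0.651 (0.596 to 0.711) with the inhibitor and 0.947 (0.877 to 1.02) in the knockdown. GLT8D1, on the opposite strand at the end of GNL3, was higher in both treatments (log2 fold change 0.88 in CDK4/6 KD and 0.39 with PD0332991), and what it adds to the GNL3 count was not tested. GNL2, a related GTPase, was at 0.803 and 0.712 in the knockdown and the inhibitor.

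BRIX1 was lower with PD0332991 (0.584, 0.517 to 0.659) than in CDK4/6 KD (0.688, 0.617 to 0.766) at the estimate, with overlapping intervals. NOP16 was at 0.492 in the knockdown and 0.760 with the inhibitor, and NIP7 at 0.608 and 0.709. DDX21, an RNA helicase of the nucleolus and the third most abundant member, was at 976 CPM in DMSO, 638 in PD0332991, 1186 with scrambled siRNA and 803 in CDK4/6 KD, ratios of 0.677 (0.659 to 0.696) in the knockdown and 0.653 (0.632 to 0.676) with the inhibitor. RRS1, RRP1B and DDX56, further nucleolar assembly proteins, had knockdown ratios of 0.672, 0.705 and 0.652 and inhibitor ratios of 0.698, 0.782 and 0.934. For PPAN, 0 reads allow up to 3 reads, or 0.265 to 0.329 CPM. P2RY11, which overlaps the last 500 bases of PPAN on the same strand in the annotation, was listed at 99.0 to 136 CPM. Whether reads of PPAN were counted under P2RY11 was not tested.

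The controls themselves differed. Between scrambled siRNA and DMSO the median log2 fold change of the members was 0.18, beside 0.01 for all genes. With scrambled siRNA 29 of 44 were higher, beside 6740 of 13303 of all genes. At 1.5-fold, 2 members were higher (NOP2 and PES1, beside 13.4% of all genes) and 1 lower (POLR1A, beside 15.7%). At 2-fold 0 were higher (beside 5.3%), and 0 had a whole interval above 1.5-fold (beside 4.28%). Intervals lay above 1 for 24 members, beside 28.3% of all genes. Set against the other control, CDK4/6 KD gave 23 members at least 1.5-fold lower (beside 17.4% of all genes) with a median of -0.60, and PD0332991 gave 27 (beside 18.3%) with a median of -0.67. Against DMSO the counts were thus 23 for the knockdown and 17 for the inhibitor, and against scrambled siRNA 27 for each.

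Taking all 4 libraries at once, both treated libraries were lower than both controls for 40 of 44 members, beside 21% of all genes and 25.2% of those counted as deeply. Both were higher for 0 members, beside 21.3% and 17.6%. The exceptions were POLR1A, UBTF, HEATR1 and NOB1.

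Gene by gene, the treatments did not rank the members alike. The knockdown ratio was under the inhibitor ratio for 31 of 44 genes, with the whole knockdown interval under that of the inhibitor for 18 (beside 29.6% of the deeply counted genes) and above it for 7 (beside 27.9%). With the controls exchanged the knockdown ratio was the lower one for 20 genes, with intervals apart for 10 (beside 27%) and, in the other direction, for 10 (beside 32.9%). For the counts of 31 and 20 no share over other genes was taken. With either pairing, FBL, MRTO4, NCL, NOB1, NOP14, NPM1 and WDR43 had the lower interval in the knockdown and GAR1, GNL2 and TCOF1 in the inhibitor library. The share of other genes apart with either pairing was not taken, so whether these members stand out from other genes was not tested. At least 1.5-fold lower in both treatments were 11 members, beside 4.15% of the deeply counted genes, and in neither 11, beside 76.3%. The intervals lay on opposite sides of 1 for 1 member, NOB1, beside 18.2% of the deeply counted genes, and with the controls exchanged for 1, POLR1A, beside 22.6%. Across the 44 members, which share libraries and are not independent, the log2 fold changes of the treatments had a Pearson r of -0.04 and a Spearman rho of 0.02, beside 0.33 and 0.29 across the 7203 deeply counted genes. No library was used in both comparisons.

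**Figure D3:**
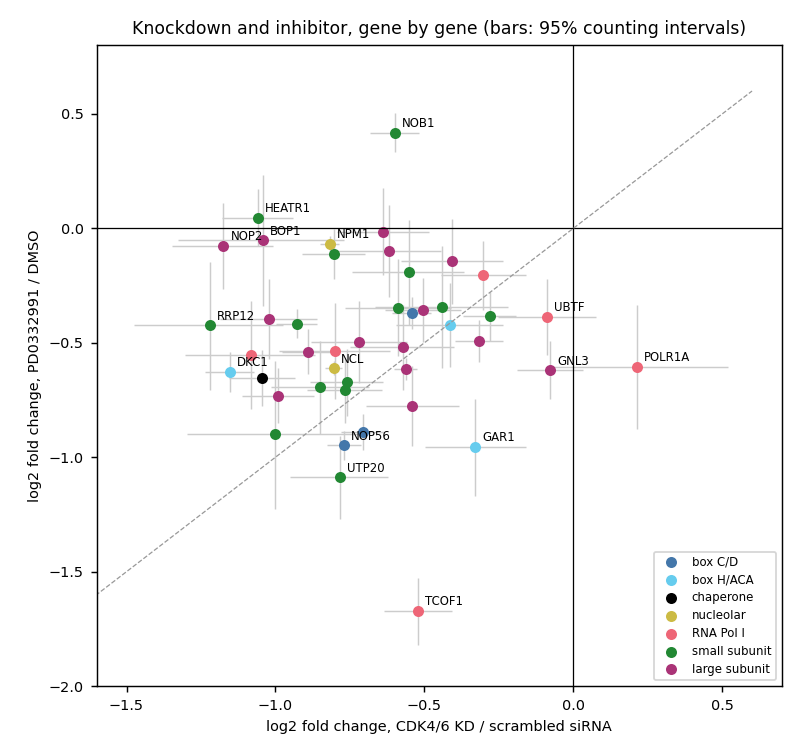
Log2 fold change in CDK4/6 KD over scrambled siRNA (horizontal) against PD0332991 over DMSO (vertical) for the 44 genes, coloured by role, with 95% counting intervals as bars and the line of equal change dashed. Most genes lie in the lower left field; NOB1 and HEATR1 lie above 0 for the inhibitor and POLR1A right of 0 for the knockdown.

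The rest of the pathway was read from a list of 117 further ribosome biogenesis genes, of which 115 were tested. On the log2 scale the median difference was -0.51 in CDK4/6 KD and -0.24 with PD0332991. At least 1.5-fold lower in CDK4/6 KD were 47 of 115 (40.9%, beside 17.4% of all genes) and 1 was higher (beside 19.4%). With PD0332991 20 of 115 were lower, a share of 17.4% that is close to the 15.1% of all genes, and 0 were higher (beside 16.8%). Both treated libraries lay under both controls for 75 of 115 (65.2%, beside 21% of all genes). The firmest differences were in PAK1IP1, an assembly factor of the large subunit (79.5 CPM with scrambled siRNA and 32.7 in CDK4/6 KD), in CD3EAP, a Pol I subunit, and in LYAR, a nucleolar regulator of growth. CD3EAP was at 105 CPM with scrambled siRNA and 46.4 in CDK4/6 KD, and at 114 in DMSO and 39.2 in PD0332991. LYAR was at 199 and 91.3 CPM, and at 189 and 72.9. NOL11, a processome protein, was at 148 CPM in DMSO and 77.6 in PD0332991.

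On the higher side stood RSL24D1, a late factor of the large subunit, at 1.58-fold in CDK4/6 KD (1.44 to 1.73), NOP9, an RNA-binding factor of the small subunit, at 1.49-fold (1.42 to 1.55), and PIH1D1, of the complex that helps assemble box C/D RNPs, at 1.29-fold (1.18 to 1.41). With PD0332991 they were POLR1D, a subunit shared by Pol I and Pol III, at 1.35-fold (1.24 to 1.48), EIF6, which keeps the large subunit from joining, at 1.23-fold (1.17 to 1.29), and DDX49, a helicase, at 1.40-fold (1.17 to 1.68). Of these only RSL24D1 passed 1.5-fold.

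Among the further Pol I genes, 10 in the wider list, 9 had a ratio under 1 in CDK4/6 KD, with a log2 median of -0.58, and with PD0332991 6 were under and 4 above, with a median of -0.05. The 7 genes particular to RNA polymerase II had medians of -0.35 in CDK4/6 KD and -0.07 with PD0332991, with 4 under 1 and 3 above for the inhibitor. The 11 of RNA polymerase III had -0.39, close to the -0.41 of the 6 Pol I members in CDK4/6 KD, and -0.03 with PD0332991, with 6 under 1 and 5 above. These are descriptions of short lists, and the differences between them were not tested. Of all genes, 6843 of 13617 had a ratio under 1 in CDK4/6 KD and 6507 of 13443 with PD0332991.

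**Figure D4:**
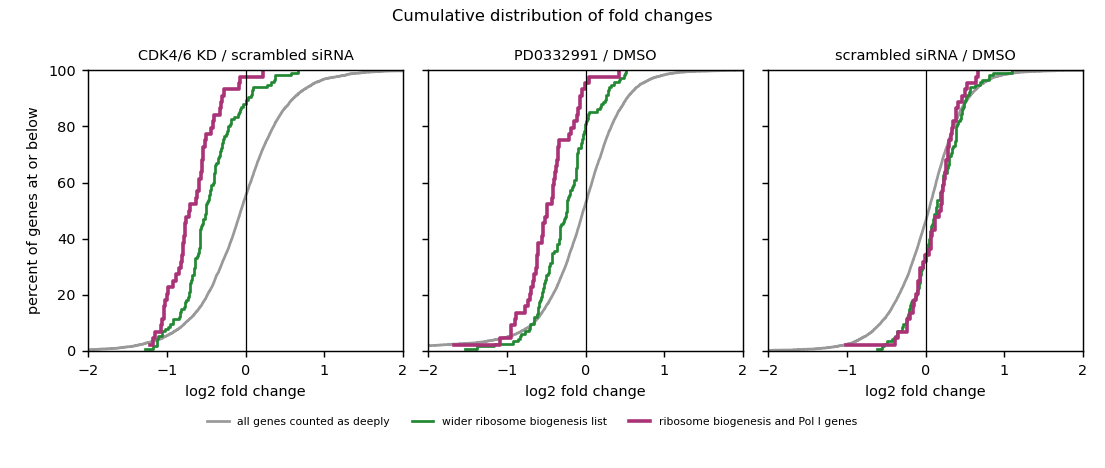
Cumulative percent of genes at or below each log2 fold change for the 44 ribosome biogenesis and Pol I genes, the 115 genes of the wider list and the genes counted at least as deeply as the members, in the 3 comparisons. In both treatment panels the 44 genes lie left of the wider list over most of their range (medians -0.71 and -0.51, then -0.49 and -0.24), and in the panel of the controls they lie right of the deeply counted genes below the median and cross them above it.

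Proliferation genes shared the direction of the list in both treatments, but not between the controls. The summed level of 15 such genes was 5541 CPM in DMSO, 763 in PD0332991, 3885 with scrambled siRNA and 1736 in CDK4/6 KD. All 15 were lower in both treatments (beside 6843 of 13617 genes in CDK4/6 KD and 6507 of 13443 with PD0332991). Their median log2 fold change was -2.86 with PD0332991 and -1.24 in CDK4/6 KD, so the inhibitor library was the lower one for these genes. The sum over the members was 7749 CPM there beside 7065 in CDK4/6 KD. Between the controls the proliferation genes ran in the opposite direction to the members: all 15 were lower with scrambled siRNA (beside 6563 of 13303 genes), at a median of -0.57. Keratinocyte markers, 5 of 10 with at least 10 reads, summed to 70.3, 137, 57.4 and 102 CPM in DMSO, PD0332991, scrambled siRNA and CDK4/6 KD. Single genes moved by more than the sum: the median ratio of the 5 was 15.9 for PD0332991 over DMSO, 1.81 for CDK4/6 KD over scrambled siRNA and 2.85 for scrambled siRNA over DMSO. Fibroblast markers summed to 42.5, 64.0, 7.29 and 19.7 CPM. The part of growth state or of other cells in the ribosome biogenesis values was not tested.

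The members with the E-box shown above did not have the lower median in either treatment, a difference that was not tested. No window was found for 7 members, among them RRP12, NOLC1, BOP1 and TCOF1, so these are in neither group. The 17 members with CACGTG had log2 fold changes with a median of -0.59 in CDK4/6 KD and -0.42 with PD0332991, and the 20 counted members with a window but without it had -0.76 and -0.52. In CDK4/6 KD the members with CACGTG ranged from -1.17 (NOP2) to -0.08 (GNL3) and those without it from -1.15 to 0.21. Genes of another strand or name overlapped the last 500 bases of 17 members, and the 28 counted members without such a neighbour had medians of -0.74 and -0.57, with 18 and 14 at least 1.5-fold lower (beside 17.4% and 15.1% of all genes).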

How the data were processed

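RNA from HepG2 cells was sequenced after QuantSeq 3′ library preparation (NextSeq 500, single-end), 1 library per condition. Gene counts were deposited by the authors as raw whole numbers per symbol. The submitters' processing notes name Bowtie2, edgeR and the build hg19; versions, annotation, counter and use of strand are not given in the sources used here. Repeated symbols (286 of 24462, in 25737 rows) were summed. Counts were scaled with TMM (edgeR 4.0.16, R 4.3.3; factors 0.957 to 1.03), and log2 fold changes were computed after adding 0.5 reads, and a gene had to reach 10 reads in 1 of the libraries compared. The 95% intervals are Clopper-Pearson intervals (scipy 1.17.1) on the split of reads. PCR duplicates were not marked by molecular identifiers in the counts used. A gene was called at 1.5-fold. No test was run, since each group has 1 library. The script was tested on simulated data.

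The members, the other gene lists and the motifs were chosen with earlier results of these data known, so agreement with those is no independent support. Named are all members, CDK4 and CDK6, and, from the wider list, up to 3 genes per direction and treatment comparison with the firmest difference by the interval end nearest 1. Neighbours named for overlap and the exceptions in counts were chosen after their values were seen. Coordinates and overlaps come from RefSeq (GRCh38.p14) and GENCODE 29, not from the authors' build. Alternatives were total counts, DESeq2 1.42.0 size factors, quantile normalization (limma 3.58.1), other filters, pseudocounts and folds, and the exchange of controls. Chosen after seeing the data were the count over all 4 libraries, the side by side counts of the treatments over other genes, the deeply counted genes (mean of at least 199.75 reads) and the members without an overlapping gene.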

Additional observations from a re-analysis of the deposited data

Results flagged for a closer look

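Among the members and the wider-list genes named for the firmest differences, 6 differed in direction between the treatments when each was set against its own control. With 1 library per condition the difference was not tested. NOB1 had a log2 fold change of -0.60 in CDK4/6 KD over scrambled siRNA and 0.42 in PD0332991 over DMSO. For DDX49 these were -0.58 and 0.49, and for EIF6 -0.65 and 0.30, and in these 3 both counting intervals left out a ratio of 1. HEATR1 (-1.06 and 0.05), POLR1A (0.21 and -0.60) and POLR1D (-0.0013 and 0.44) had 1 interval that included it. Over the whole wider list, intervals lay on opposite sides of 1 for 8 of 115 genes (TAF1C, KRR1, DDX47, DDX49, WDR18, NMD3, EIF6 and EFTUD1, a share of 6.96%), and over the deeply counted genes for 18.2%.

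Exchanging the controls reversed both directions for DDX49 and POLR1A, and that of the inhibitor for EIF6 and HEATR1. For NOB1 and POLR1D neither direction changed. The knockdown ratio against DMSO was 0.983 (0.940 to 1.03) for EIF6 and 1.17 (0.984 to 1.41) for DDX49. PD0332991 against scrambled siRNA was lower for both, at 0.797 and 0.7998, and for NOB1 it was 1.05 (0.999 to 1.11).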

How the results depend on the processing

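With 1 library per condition nothing could be left out, and every value rests on counting error alone. No paired analysis was possible because each group holds 1 library. The number of members at least 1.5-fold lower in CDK4/6 KD over scrambled siRNA was 27, with 23 under total counts, 23 under quantile normalization, 23 against DMSO, 22 with the whole interval past 1.5-fold, and 9 at 2-fold. In PD0332991 over DMSO it was 17, with 14 under quantile normalization, 2 at 2-fold, 7 with the whole interval past 1.5-fold and 27 against scrambled siRNA, where the median went from -0.49 to -0.67. POLR1A reversed there, from -0.60 to 0.40. The 2 members higher with scrambled siRNA than in DMSO became 1 under total counts, 0 at 2-fold, 0 with the whole interval past 1.5-fold and 1 among the members without an overlapping gene. The cause was not tested. Total counts moved the median of all genes in CDK4/6 KD over scrambled siRNA by 0.10. DESeq2 size factors, the other filters and pseudocount 5 moved no member's value beyond its counting interval. In the knockdown total counts moved 12 of 44 and quantile normalization 10, and exchanging the controls moved 33 in the knockdown and 29 with PD0332991, beside the reversed POLR1A. Among those moved, the sign also changed for POLR1A in the knockdown (0.21 to -0.79). With PD0332991 it changed for HEATR1 (0.05 to -0.41) and UBTF (-0.39 to 0.0045). In each of these an interval included a ratio of 1.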
